A study of Gallus gallus with 6 samples.

Results

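The genes described here encode Rab GTPases, their regulators and the coats, tethers, fusion proteins and sorting complexes of vesicle transport in bursal B-cells of the chicken embryo. They were taken by gene symbol from the authors' table of differentially expressed genes between embryonic day (ED) 16 and ED19, in which 131 of 8469 listed genes carried a symbol of these families. The count table holds 19219 genes in all, so the listed genes were 44.1% of it. Because symbols are given only for genes that the authors had called in this same contrast, every one of the 131 genes differs between ED16 and ED19 by choice. Their values are therefore a description. Counts of these genes called by a test of the stage difference are given below, but nothing is read from them. Family members that were not called, such as any Rab gene absent from the list, are not analysed here.

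Cells were isolated from the bursas of Hy-Line W-36 commercial layer embryos at ED16 or ED19, with 3 libraries a stage (ED16_1, ED16_2 and ED16_3 against ED19_4, ED19_5 and ED19_6). Each library came from its own pool of many bursas, so the spread between libraries is a spread between pools and not between embryos. Lymphocytes were enriched by centrifugation on Histopaque, with no sorting of B-cells stated after it, and poly-A RNA was made into libraries with a NEBNext kit. No treatment or genetic alteration was applied to either stage. All embryos of both stages came from the same commercial line, and the embryo's age was the labelled difference.

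Small GTPases of the Rab family mark the membranes of each compartment and switch between an active and an inactive form, and TBC domain proteins are the enzymes that turn many of them off. Coats such as COPII, COPI and clathrin with its adaptors bud vesicles and choose their cargo, tethers such as the exocyst, TRAPP, COG and HOPS catch a vesicle at its target, and SNAREs fuse the membranes. Retromer and sorting nexins return cargo from endosomes, and the ESCRT machinery sorts cargo into multivesicular bodies. In B-cells these routes carry the antigen receptor to and from the surface and bring internalised antigen to the compartments where it is loaded for presentation.

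The counts on genes summed to 27087661 to 34614652 per library. Of the listed B-cell markers, 3 of 12 had an identifier (BLNK, BACH2 and TNFRSF13C), and their summed RPKM (reads scaled by gene length and by the total counted in the library) was 131 to 155 at ED16 against 282 to 408 at ED19. Markers, too, could be found only where the authors had called them in this contrast. Every marker found therefore differs between the stages by choice, markers that did not differ are missing, and the sums are a description. Markers of other cells were present, mainly at ED16. The summed RPKM of 7 erythroid markers was 4011 to 5897 at ED16 against 155 to 273 at ED19, that of 11 epithelial markers was 121 to 267 against 5.83 to 7.62, that of 10 kidney markers was 91.6 to 253 against 6.34 to 8.82, that of 7 T cell markers was 281 to 361 against 136 to 228, and that of 4 granulocyte and macrophage markers was 56.1 to 80.7 against 8.79 to 14.9. Fibroblast markers (8 genes) summed to 18.5 to 21.6 against 3.96 to 5.76, with TWIST1 and PDGFRB at 0 counts in every ED19 library. Endothelial markers (5 genes) summed to 1.99 to 3.22 against 3.71 to 13.0, with KDR and VWF at 0 at ED19. Of the endothelial markers, 4 were higher at ED16. Only PECAM1 was higher at ED19, with 1.53 to 2.64 RPKM at ED16 against 3.66 to 12.9 at ED19. AGXT and PIPOX of the kidney list were also at 0 in every ED19 library. In bulk RNA, fewer cells of a type and less RNA per cell cannot be told apart, and the part of this difference in cell makeup in the values below was not tested. The study's methods also give a lower RNA integrity at ED16, which cannot be told apart from the stage. The same holds for the higher GC content and the smaller share of mapped reads that the study reports for the ED16 libraries.

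More of the trafficking genes were higher at ED19 than at ED16. By mean RPKM, 91 of the 131 genes were higher at ED19 and 40 were higher at ED16, whereas over all 13923 tested genes 48.6% had a log2 fold change below 0 and 51.4% above 0. Log2 fold changes are given as ED16 over ED19, so that a negative value is higher expression at ED19. The median log2 fold change was −0.92 over the 130 trafficking genes with enough counts to be fitted, 0.05 over all tested genes and 0.96 over the 7923 tested genes of the authors' table. The median of the trafficking genes minus that of all tested genes was −0.97, and it was −0.73 after a correction for gene length and −0.78 with at least 10 counts required in every library. Scaling the libraries by upper quartile shifted all genes together, to a median of 0.26 for all tested genes and of −0.71 for the trafficking genes. edgeR's quasi-likelihood test called 129 of the 130 genes at an adjusted p below 0.05, where 66.4% of all tested genes were called (35.6% higher at ED16 and 30.8% higher at ED19), and the gene it did not call was TBC1D9. RPKM values did not overlap between the stages for 126 of the 131 genes, against 71.6% of all tested genes. The 5 that overlapped were SNAP23, STX17, TBC1D24, TBC1D9 and TRAPPC12. Both counts follow from how the genes were chosen and nothing is read from them.

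The genes higher at ED16 were also expressed at a lower level. Their median RPKM over all libraries was 4.12, against 12.4 for those higher at ED19, and a mean RPKM below 5 was found in 21 of the 40 and in 18 of the 91. The median over all tested genes was 7.70. Whether levels differ by direction among all tested genes too was not tested. The 3 genes with the smallest difference were TRAPPC12, SEC24C and TBC1D1, at log2 fold changes of −0.64, −0.64 and −0.66. The median size of the log2 fold change, whatever its sign, was 1.21 for the trafficking genes, 1.52 for all tested genes of the authors' table and 0.38 for the 6000 tested genes outside it. The trafficking genes thus had smaller differences than the called genes as a whole.

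**Figure D1:**
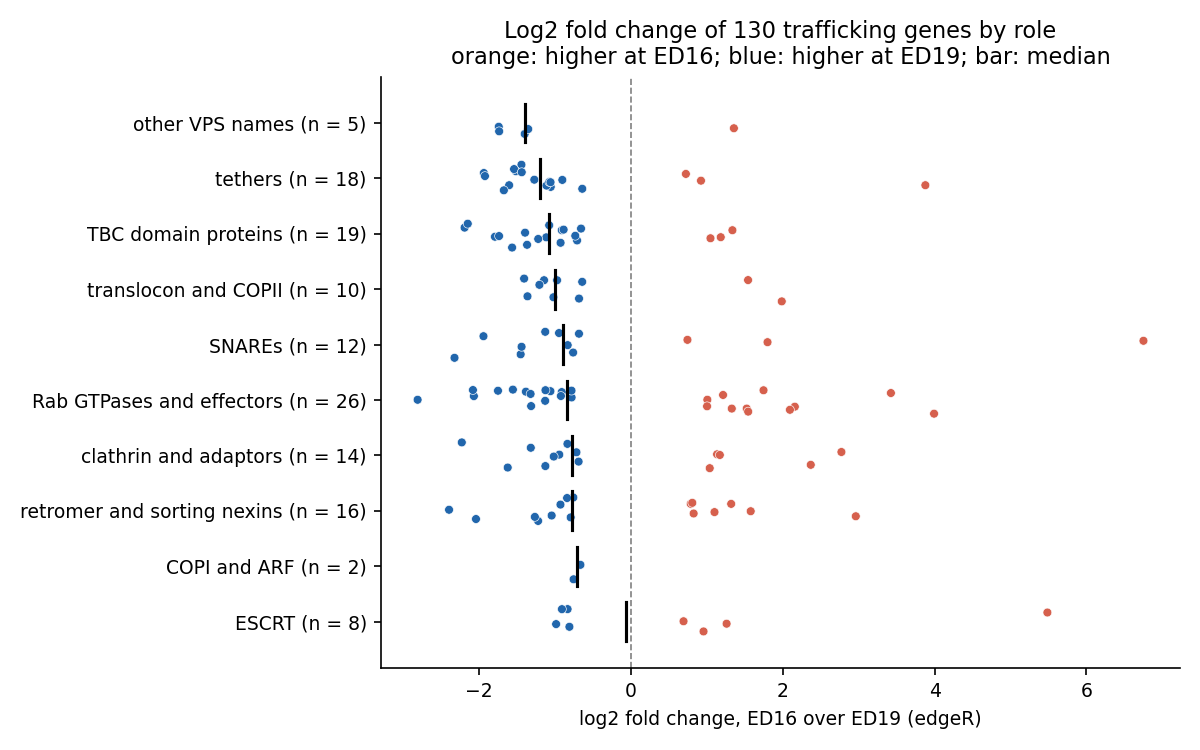
Log2 fold change (ED16 over ED19, x axis) of each of the 130 fitted trafficking genes, grouped by role on the y axis, with 1 point a gene and a bar at the median of each role. Points lie mainly left of 0 in the TBC domain, tether and translocon and COPII rows (16 of 19, 15 of 18 and 8 of 10 genes), and are divided evenly in the ESCRT row (4 and 4); the fitted value of SNAP25, at 6.75, rests on 1 count at ED19.

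Rab GTPases and their effectors were divided between the stages, with 12 of 27 higher at ED16 and 15 higher at ED19. All 22 Rab GTPases among them carry a Rab-type domain in the authors' annotation, and 11 of these were higher at each stage. The level differed more than the number. The 11 Rab GTPases higher at ED19 had a median RPKM of 29.4, and the 11 higher at ED16 had one of 1.51. The summed RPKM of the 27 genes was 362 to 371 in the ED16 libraries and 540 to 678 in the ED19 libraries.

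RAB8B, which acts in transport to the plasma membrane, had the highest mean level of the 27. Its RPKM was 34.3, 43.3 and 38.6 in the ED16 libraries and 115, 132 and 58.8 in the ED19 libraries, with a log2 fold change of −1.32 ± 0.24 (SE of the fit, n = 3 a stage here and below). All ED19 libraries lay above all ED16 libraries, and ED19_6 was nearest to them. RAB9A, which acts between late endosomes and the Golgi, was at 30.2, 31.6 and 32.3 at ED16 and at 109, 116 and 103 at ED19 (log2 fold change −1.75 ± 0.13). Here the libraries of a stage lay close together and far from those of the other stage. RAB22A, a Rab of early and recycling endosomes, had the most negative log2 fold change of all 130 genes, −2.81 ± 0.38. Its RPKM was 1.09, 1.15 and 1.10 at ED16 against 9.91, 11.6 and 3.31 at ED19, so that ED19_6 had a level between the other ED19 libraries and those of ED16.

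Other Rab GTPases higher at ED19 were RAB4A of rapid recycling (−1.56), RAB33B of the Golgi and autophagy (−1.38), RAB5A of early endosomes (−1.13), RAB27A of secretory granules (−1.06), RAB8A (−0.92), RAB31 (−0.91), RAB18 of the endoplasmic reticulum and lipid droplets (−0.78) and RAB21 of early endosomes (−0.78). The effectors and regulators RABEP1, which binds active RAB5, and RAB11FIP2, which binds RAB11, were at −1.32 and −2.07. Both subunits of the RAB3GAP complex were higher at ED19, RAB3GAP1 at −1.13 and RAB3GAP2 at −2.08 ± 0.33. RAB3GAP2 had RPKM values of 2.38, 2.67 and 1.95 at ED16 and 13.8, 12.8 and 4.74 at ED19. Again ED19_6 was the lowest ED19 library, without reaching the ED16 range.

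Among the Rab GTPases higher at ED16, RAB37, known in mammals from secretory granules, had the largest log2 fold change with a mean RPKM of at least 5. Its RPKM was 24.9, 20.5 and 14.8 at ED16 against 7.48, 7.76 and 6.13 at ED19, for a log2 fold change of 1.54 ± 0.21, and the stages did not overlap although ED16_1 was well above ED16_3. RAB24, linked to autophagy, was at 1.01, RAB34 at 1.33, RAB20 at 2.16, RAB30 at 1.21, RAB32 at 1.52, RAB26 of secretory granules at 2.09 and the RAB11 effector RAB11FIP3 at 1.75. After the length correction RAB24 was at 0.49 ± 0.22, RAB30 at 0.77, RAB34 at 0.87 and RAB20 at 1.89, while RAB26, RAB32 and RAB11FIP3 were higher than before. The mean RPKM values of RAB30, RAB32 and RAB26 were low, at 1.47, 0.87 and 0.75. RAB25, RAB7B and RAB42 also rest on few reads. RAB25, a Rab of recycling in epithelia, had 38, 24 and 19 counts at ED16 against 4, 3 and 0 at ED19. RAB7B had 230, 86 and 44 counts at ED16 against 9, 8 and 4 at ED19, and its log2 fold change was 3.99 with all libraries and 3.22 without ED16_1. RAB42 had too few counts to be fitted, with 17, 10 and 6 at ED16 and 0, 3 and 0 at ED19, a ratio of 10.2 scaled by library totals (95% counting interval 3.20 to 52.0). Intervals of this kind cover counting error only.

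**Figure D2:**
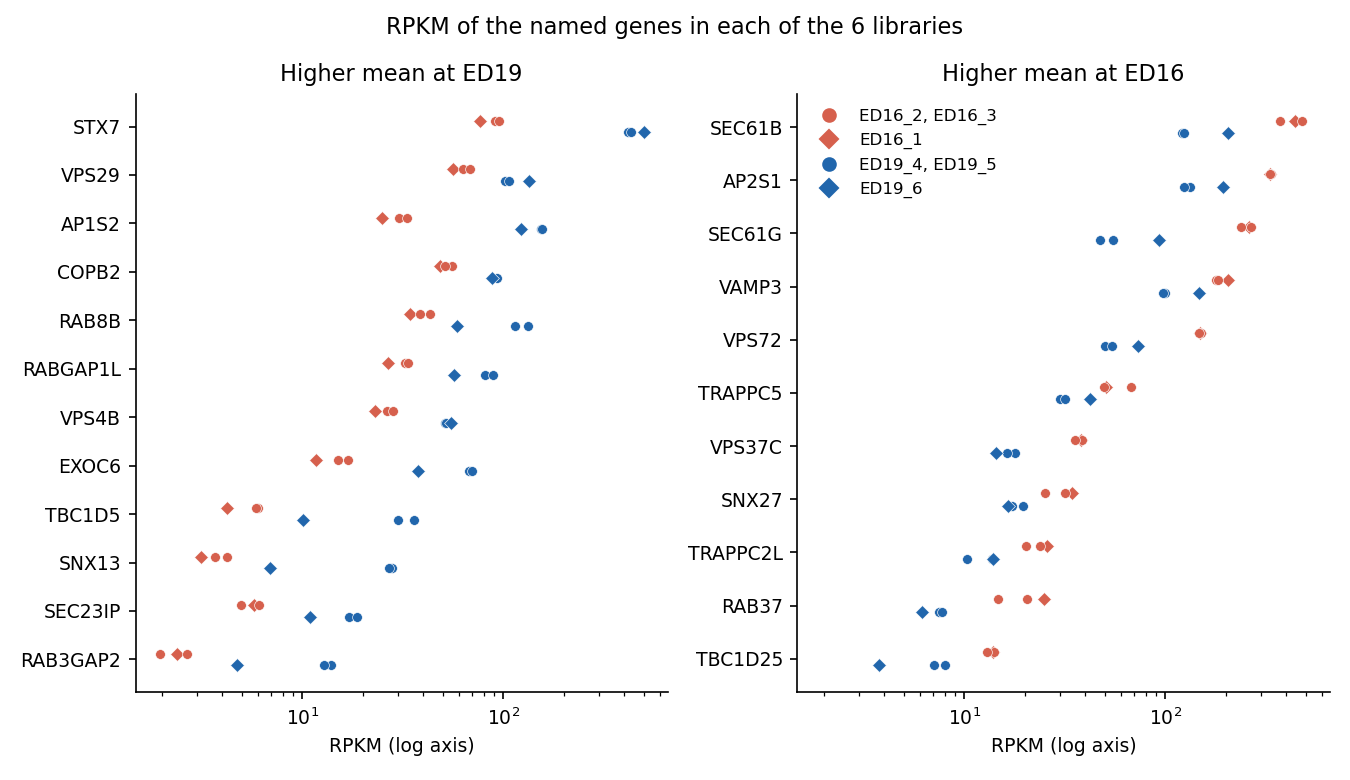
RPKM on a log axis of the genes named by rule in each role, with 1 point for each of the 3 ED16 (orange) and 3 ED19 (blue) libraries and diamonds for ED16_1 and ED19_6. SEC61B, AP2S1 and VAMP3 lie above 97 RPKM in every library and are higher at ED16, while STX7 runs from 76.4 to 94.8 at ED16 and from 415 to 498 at ED19.

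TBC domain proteins were mainly higher at ED19, in 16 of 19 genes, with a median log2 fold change of −1.08. All 19 carry the TBC domain in the annotation. Their summed RPKM was 114 to 130 at ED16 against 191 to 319 at ED19, with ED19_6 at the lower end. RABGAP1L had the highest mean level, at 26.7, 32.5 and 33.6 RPKM at ED16 and 80.7, 88.3 and 57.0 at ED19 (log2 fold change −1.22 ± 0.17). TBC1D5, which binds retromer and turns off RAB7, was at 4.24, 5.98 and 5.87 at ED16 and at 29.7, 36.0 and 10.1 at ED19 (−2.15 ± 0.38). The stages did not overlap for either gene, and in both ED19_6 was the lowest ED19 library. TBC1D15, which also acts on RAB7, was at −1.57, TBC1D2B at −2.19, TBC1D14 at −1.79 and TBC1D22A at −1.74.

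The 3 TBC genes higher at ED16 were TBC1D25, TBC1D8 and TBC1D9. TBC1D25, which acts on RAB33 in autophagy, had RPKM values of 13.8, 14 and 12.9 at ED16 and 8.00, 7.08 and 3.75 at ED19 (log2 fold change 1.18 ± 0.26), with no overlap. After the length correction the value of TBC1D25 was 0.34 ± 0.30. The other two had mean RPKM values of at most 2.42 at either stage.

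SNAREs were higher at ED19 in 9 of 12 genes, with a median log2 fold change of −0.89 and a summed RPKM of 339 to 344 at ED16 and 671 to 780 at ED19. At ED16 the largest part of that sum was VAMP3, at 179 to 205 RPKM. At ED19 the largest part, and most of the difference in the sum between the stages, was STX7, a SNARE of endosome fusion. Its RPKM was 76.4, 90.6 and 94.8 at ED16 against 415, 432 and 498 at ED19, the last being the highest value of any trafficking gene in any library. The log2 fold change was −2.33 ± 0.20, and here ED19_6 was the highest ED19 library. SNAP29, a SNARE of autophagosome and endosome fusion, was at 7.71, 9.07 and 9.33 at ED16 and 34.4, 36.1 and 33.2 at ED19 (−1.94 ± 0.14), again without overlap. VAMP7 of lysosome fusion was at −0.95, STX16 of the Golgi at −0.83, STX2 of the plasma membrane at −1.44 and SNAP47 at −1.13. STX11 was at −1.45 with mean RPKM values of 0.693 at ED16 and 1.99 at ED19. SNAP23 (−0.76) and STX17 (−0.69), a SNARE of autophagosomes, were among the genes whose stages overlapped.

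VAMP3, a SNARE of recycling endosomes, had RPKM values of 205, 179 and 182 at ED16 and 99.5, 97.4 and 147 at ED19. The stages did not overlap, and the log2 fold change was 0.74 ± 0.23. After a correction for gene length the value was −0.035 ± 0.16, so that VAMP3 then had no clear direction. STX3 had 45, 50 and 28 counts at ED16 against 29, 5 and 2 at ED19, with a log2 fold change of 1.80 that became 3.32 without ED19_4. SNAP25, the SNARE of regulated secretion in neurons and endocrine cells, had 58, 59 and 35 counts at ED16 against 1, 0 and 0 at ED19, a ratio of 141 scaled by library totals (95% counting interval 24.9 to 5608), or of 47 with the ED19 sum set to the floor of 3 counts. The summed RPKM of 7 neuronal and endocrine markers was 53.9 to 99.2 at ED16 against 2.65 to 5.11 at ED19, with all 7 higher at ED16 and none at 0 in every ED19 library. Its part in the SNAP25 values was not tested.

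Tethers were higher at ED19 in 15 of 18 genes, the median log2 fold change was −1.19, and the summed RPKM was 186 to 210 at ED16 against 296 to 394 at ED19. The exocyst, which holds secretory vesicles at the plasma membrane, was represented by EXOC1 (−1.61), EXOC2 (−1.68), EXOC5 (−1.52) and EXOC6 (−1.94). EXOC6 had RPKM values of 11.6, 15.0 and 16.8 at ED16 and 67.5, 69.8 and 37.5 at ED19, its SE was 0.23, and ED19_6 was the lowest ED19 library while still above the ED16 range. The related gene EXOC3L4 went the other way on few reads, with 43, 27 and 12 counts at ED16 against 2, 3 and 0 at ED19 (ratio 15.2, 95% counting interval 6.26 to 48.1). The COG complex, which tethers vesicles within the Golgi, was represented by COG2 (−1.06), COG3 (−1.44) and COG6 (−1.11). The HOPS subunits VPS18, VPS39 and VPS41, which tether at late endosomes and lysosomes, were at −1.54, −1.44 and −1.06, and the GARP subunit VPS54 was at −0.90.

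The TRAPP complexes, which act in transport from the endoplasmic reticulum and through the Golgi, had members in both directions. TRAPPC9 (−1.92), TRAPPC8 (−1.27), TRAPPC2 (−1.08) and TRAPPC12 (−0.64) were higher at ED19. TRAPPC5 had RPKM values of 50.9, 49.4 and 67.6 at ED16 and 30.1, 31.8 and 42.2 at ED19. Its log2 fold change of 0.72 ± 0.24 became −0.19 ± 0.19 after the length correction. TRAPPC2L was at 25.9, 23.8 and 20.2 at ED16 and 13.7, 10.3 and 13.9 at ED19 (0.92 ± 0.20, or 0.43 ± 0.17 after the length correction). In both genes all ED16 libraries lay above all ED19 libraries.

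In the group of the translocon, through which new proteins enter the endoplasmic reticulum, and of COPII, the coat of vesicles leaving it, 8 of 10 genes were higher at ED19, while the summed RPKM was higher at ED16, at 772 to 891 against 480 to 562. The subunits of the SEC61 channel differed in direction. SEC61B, a small subunit, was the trafficking gene with the highest mean RPKM, 290, and was at 441, 373 and 477 at ED16 and 122, 123 and 205 at ED19 (log2 fold change 1.54 ± 0.28). SEC61G, the other small subunit, was at 260, 237 and 265 at ED16 and 54.7, 47.5 and 92.5 at ED19 (1.99 ± 0.29). SEC61A1, which forms the pore, was at 19.4, 24.1 and 20.4 at ED16 and 53.0, 55.2 and 27.8 at ED19 (−1.02 ± 0.21).

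After the length correction SEC61B was at 0.80 and SEC61G at 0.99. None of the 3 overlapped between the stages, and in each of them ED19_6 was the ED19 library nearest to ED16. SEC62 and SEC63, which assist the channel, were at −0.97 and −0.68. Of COPII, the cargo adaptors SEC24A, SEC24B and SEC24C were at −1.21, −1.36 and −0.64. After the length correction they were at −0.85, −0.87 and −0.18 ± 0.12. SEC23IP, which binds the coat, had RPKM values of 5.77, 6.06 and 4.92 at ED16 and 17.0, 18.6 and 10.8 at ED19 (−1.41 ± 0.19). SEC22C, placed in this group by its symbol and no subunit of the coat, was at −1.15. The COPI coat, which returns proteins to the endoplasmic reticulum, was represented by its subunits COPB1 (−0.67) and COPB2 (−0.76 ± 0.13). COPB2 was at 48.5, 55.7 and 50.9 at ED16 and at 88.8, 93.1 and 88.2 at ED19, with a narrow spread at both stages.

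Clathrin and its adaptors numbered 14, of which 9 were higher at ED19, and their summed RPKM was close between the stages, at 661 to 673 against 705 to 727. AP2S1, the small subunit of the AP-2 adaptor of endocytosis, had RPKM values of 330, 336 and 332 at ED16 and 133, 123 and 195 at ED19 (log2 fold change 1.17 ± 0.23). AP1S2, a small subunit of the AP-1 adaptor of the Golgi and endosomes, was at 24.8, 30.4 and 33.2 at ED16 and 154, 155 and 122 at ED19 (−2.23 ± 0.16). No library of a stage overlapped the other stage in either gene. After the length correction, however, AP2S1, of 357 bases, was at 0.11 ± 0.16 and AP1S2 at −3.02 ± 0.19, so that the higher level of AP2S1 at ED16 was nearly gone. The other AP-1 subunits were also divided, with AP1G1 at −0.69, AP1B1 at 1.13 and AP1M2, known from epithelia, at 2.37 with mean RPKM values of 2.75 and 0.550.

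Of the AP-3 adaptor, which sorts to lysosomes and related organelles, AP3B1 (−1.13), AP3M1 (−1.32), AP3M2 (−0.72) and AP3S1 (−0.84) were higher at ED19, and AP3B2 (2.77) and AP3S2 (1.04) were higher at ED16. AP3S2 was well expressed, at 135, 116 and 116 RPKM at ED16 and 59.8, 44.0 and 78.5 at ED19. Its log2 fold change was 0.46 ± 0.19 after the length correction. AP3B2, which is neuronal in mammals, had mean RPKM values of 1.49 and 0.228. AP4S1 was at −0.95 and the clathrin heavy chain gene CLTCL1 at −1.02. SNAP91, caught by its symbol, is a clathrin assembly protein and no SNARE, and was at 10.8, 12.8 and 14.7 at ED16 and 41.2, 42.0 and 38.6 at ED19 (−1.62 ± 0.16).

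Retromer and sorting nexins were more evenly divided, with 9 of 16 higher at ED19. The retromer subunits VPS29 and VPS35 were both among these. VPS29 had RPKM values of 56.0, 62.6 and 68.0 at ED16 and 101, 106 and 134 at ED19 (−0.84 ± 0.20), and VPS35 of 31.9, 35.6 and 32.5 at ED16 and 69.7, 68.1 and 59.3 at ED19 (−0.93 ± 0.12). The stages were apart in both. Of the 14 sorting nexins, 7 were higher at each stage, and 13 carry the PX domain in the annotation, SNX17 being the exception.

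SNX13 had the most negative log2 fold change of the nexins, −2.40 ± 0.42, with RPKM values of 3.14, 4.2 and 3.68 at ED16 and 28, 27 and 6.86 at ED19. ED19_6 was far below the other ED19 libraries, and without it the log2 fold change was −2.83. SNX29 (−2.04), SNX6 (−1.27), SNX25 (−1.22), SNX14 (−1.05), SNX30 (−0.79) and SNX9 of endocytosis (−0.76) were also higher at ED19. SNX27, which links cargo to retromer for return to the surface, was at 34.4, 31.8 and 25.1 at ED16 and 19.5, 17.3 and 16.4 at ED19 (0.83 ± 0.15), with no overlap. SNX12 (0.79), SNX17 (0.81), SNX24 (1.10), SNX33 (1.32), SNX7 (1.58) and SNX22 (2.96) were the others higher at ED16.

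ESCRT genes were divided 4 to 4, with a median log2 fold change of −0.06. VPS4B, the ATPase that takes the complex apart, had RPKM values of 22.9, 26.4 and 28.2 at ED16 and 51.1, 51.8 and 55.1 at ED19 (−0.99 ± 0.16). VPS37C, a subunit of ESCRT-I, was at 38.0, 38.3 and 35.7 at ED16 and 17.9, 16.3 and 14.3 at ED19 (1.26 ± 0.13). Both had a small spread within a stage. VPS37D had 288, 112 and 130 counts at ED16 against 6, 4 and 1 at ED19, for a log2 fold change of 5.49 ± 0.54. VPS36 (−0.91), CHMP2B (−0.84) and VPS37B (−0.81) were higher at ED19, and CHMP2A (0.69, but −0.12 ± 0.17 after the length correction) and CHMP4C (0.96) were higher at ED16.

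The VPS13 genes, which encode large proteins that move lipids between membranes, were all higher at ED19, with VPS13A at −1.74, VPS13B at −1.40, VPS13C at −1.74 and VPS13D at −1.35, at mean RPKM values of at most 6.44. VPS72 was caught by its symbol but encodes a subunit of a chromatin remodelling complex. It was at 149, 150 and 147 RPKM at ED16 and 50.3, 54.4 and 72.9 at ED19 (1.36 ± 0.21), and it supplied most of the summed RPKM of the 5 genes with other VPS names (153 to 157 at ED16 and 73.4 to 81.6 at ED19).

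Close relatives lay in opposite directions in some families and in the same direction in others. Grouping by name, done after the values were seen, gave 15 families with 36 genes, of which 10 had members higher at each stage and 5 (RAB8, RABGAP1, the AP-3 mu subunits, SEC24 and VPS13) had members in 1 direction only. After the length correction 9 families had members on both sides, since CHMP2A, at −0.12 ± 0.17, then lay on the side of CHMP2B. Relatives that do not share a name were left out, so the numbers of divided and undivided families hold for this grouping only. How many families would be divided without any link between relatives was not tested. RAB5A and RAB5B, both Rabs of early endosomes, show the pattern at moderate levels. RAB5A was at 16.0, 17.7 and 20.5 RPKM at ED16 and 37.8, 40.8 and 43.4 at ED19 (−1.13 ± 0.17). RAB5B was at 25.6, 26.2 and 25.7 at ED16 and 14.3, 14.9 and 11.0 at ED19 (1.00 ± 0.14). The RAB5 gene with the higher RPKM was therefore RAB5B in every ED16 library and RAB5A in every ED19 library. CHMP2A and CHMP2B, AP3S1 and AP3S2, TRAPPC2 and TRAPPC2L, and VPS37B and VPS37C also had 1 gene higher at each stage, but CHMP2A and AP3S2 had higher mean RPKM values than CHMP2B and AP3S1 at both stages. In TBC1D9, TBC1D8, AP3B2 and SNAP25 the relative higher at ED16 had a mean RPKM below 3 at both stages. TBC1D9 was also the gene that edgeR did not call, and its stages overlapped. Reads of near-identical stretches may have been shared between relatives, and since counting by strand is not stated, reads of genes that overlap on opposite strands cannot be told apart.

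**Figure D3:**
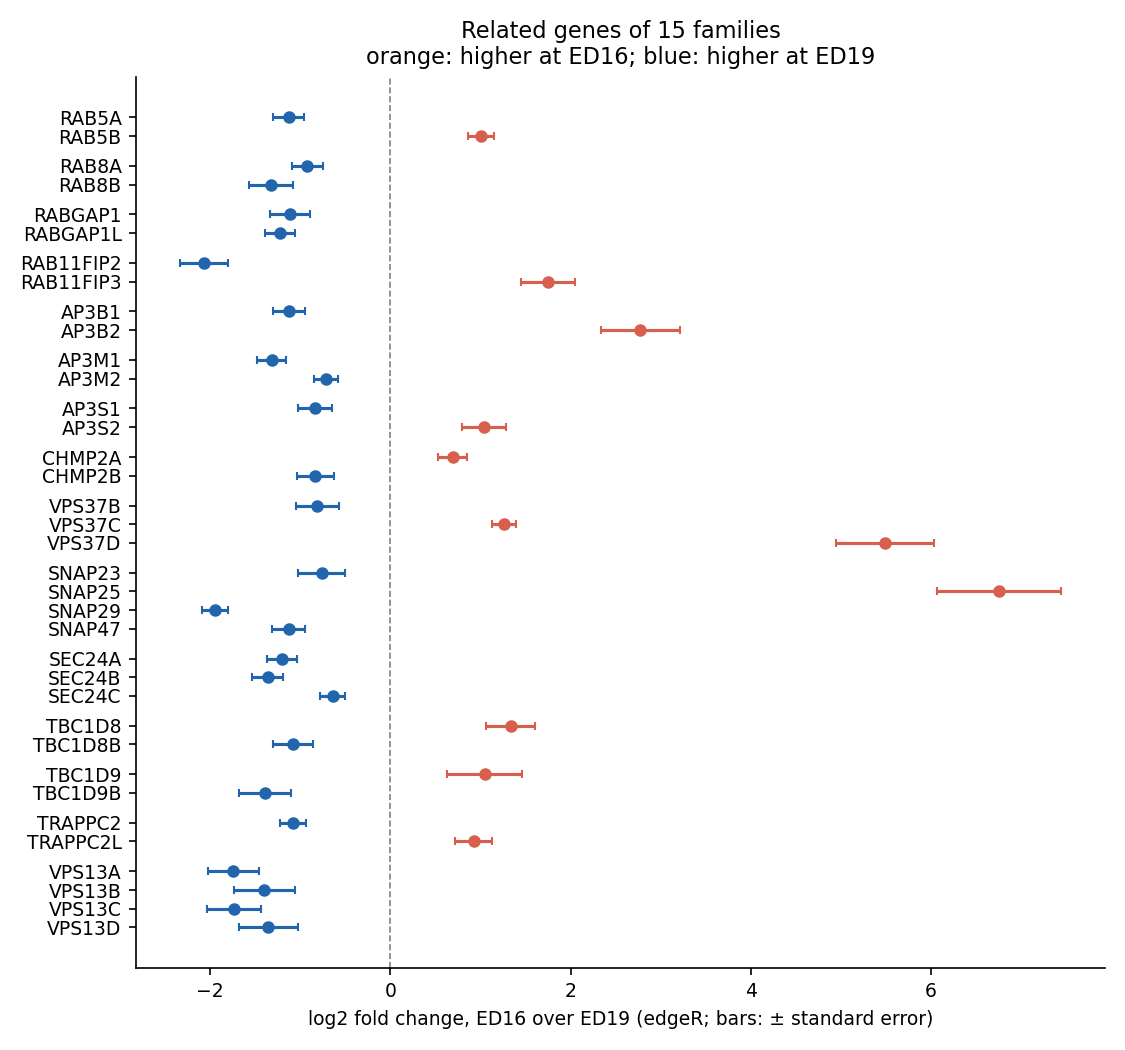
Log2 fold change (ED16 over ED19) with its SE for the 36 genes in 15 families of related trafficking genes, with the genes of a family next to each other on the y axis. Members lie on both sides of 0 in 10 families, for example RAB5A at −1.13 and RAB5B at 1.00, and on 1 side in RAB8, RABGAP1, AP-3 mu, SEC24 and VPS13.

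The direction of the trafficking genes went with gene length. The median length was 1416 bases for those higher at ED16 and 3126 bases for those higher at ED19. Among the 44 shortest genes (357 to 2033 bases) 26 were higher at ED16 and 18 at ED19, that is 40.9% higher at ED19, and 36.5% of all tested genes in that length range had a log2 fold change below 0. Among the 43 genes of 2080 to 3303 bases 83.7% were higher at ED19, against 58.4% of all tested genes of that length, and among the 44 genes of 3304 to 14579 bases the shares were 84.1% and 62.6%. Pearson's r of the log2 fold change with log2 length was −0.41 across the 130 trafficking genes and −0.16 across all 13923 tested genes, as a description across genes that share their libraries. The median log2 fold change was 0.92 for the trafficking genes and 0.44 for all tested genes in the shortest range, −0.97 and −0.24 in the middle range and −1.21 and −0.48 in the longest. The medians of the trafficking genes thus lay further from 0 than those of all tested genes of their length in all 3 ranges. The trafficking genes were chosen as called, and they were not compared with other called genes of the same length. The part of that choice in these medians was not tested.

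Correcting every library for gene length by loess gave a median log2 fold change of −0.76 for the trafficking genes and −0.03 for all tested genes, with 36 of the 130 trafficking genes above 0 and 94 below. The correlations were then −0.17 and 0.05. CHMP2A, TRAPPC5 and VAMP3, of 680, 564 and 685 bases, were the genes whose sign changed. The correction moved 18 trafficking genes by over 1.5-fold. Besides those 3 and the values given above for AP2S1, AP1S2, SEC61B, SEC61G and TBC1D25, it lowered RAB25 from 3.42 to 2.40, VPS37D from 5.49 to 4.62 and AP1M2 from 2.37 to 1.55. RAB8B was then at −2.16, STX11 at −2.12 and AP4S1 at −1.79, further from 0 than before. The long VPS13 genes came nearer to 0, with VPS13A at −1.01, VPS13B at −0.59, VPS13C at −0.96 and VPS13D at −0.53. So did other genes higher at ED19, among them SEC24C at −0.18 ± 0.12, TBC1D1 at −0.17 ± 0.15 and AP1G1 at −0.34 ± 0.13. The median moved from −1.08 to −0.77 for TBC domain proteins and from −1.19 to −0.86 for tethers. It moved the other way for ESCRT genes (−0.06 to −0.36) and for Rab GTPases and effectors (−0.85 to −0.87).

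**Figure D4:**
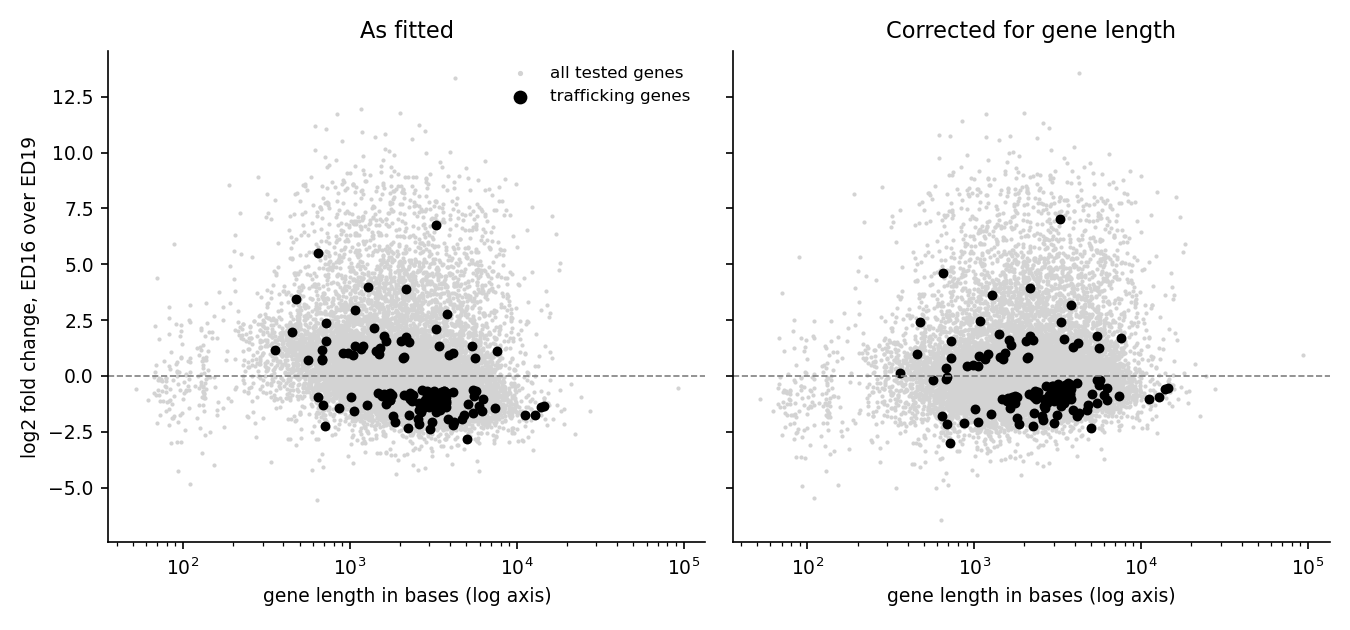
Log2 fold change (ED16 over ED19, y axis) against gene length in bases (log axis) for all 13923 tested genes in grey and the 130 trafficking genes in black, as fitted on the left and after the length correction on the right. The trafficking genes above 0 lie mainly at shorter lengths (median 1416 bases) than those below 0 (median 3126 bases), and 36 lie above 0 after the correction.

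One ED19 library, ED19_6, differed from ED19_4 and ED19_5 in these genes and over all tested genes. It had 14454 genes with a count against 15349 and 15177, and a B-cell marker sum of 282 RPKM against 401 and 408. The RPKM values carry no scaling by edgeR's TMM factors, which were 0.92 for ED19_6 against 1.08 and 1.05. The part of these differences in the values below was not tested. For the 91 genes higher at ED19, the log2 RPKM of ED19_6 minus that of the mean of ED19_4 and ED19_5 had a median of −0.55 and was below 0 in 80 genes. The median was −0.24 over the 13217 tested genes with a value, 8362 of them below 0. Over the 4287 genes that edgeR called higher at ED19 it was −0.45, with 3483 of them below 0. The difference was below −1 in 19 of the 91 genes and in 950 of the 4287. The lowest of the 91 were SNX13 (−2.0), TRAPPC9 (−1.87), RAB22A (−1.70), TBC1D5 (−1.70) and VPS13B (−1.58). SEC62 (0.46), VPS29, AP3S1, CHMP2B and STX7 were higher in ED19_6 than in the other ED19 libraries. Without ED19_6, edgeR called 129 of the trafficking genes and their median log2 fold change was −0.99. Of all 14424 genes tested without that library, 5793 were called higher at ED16 and 5156 higher at ED19.

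**Figure D5:**
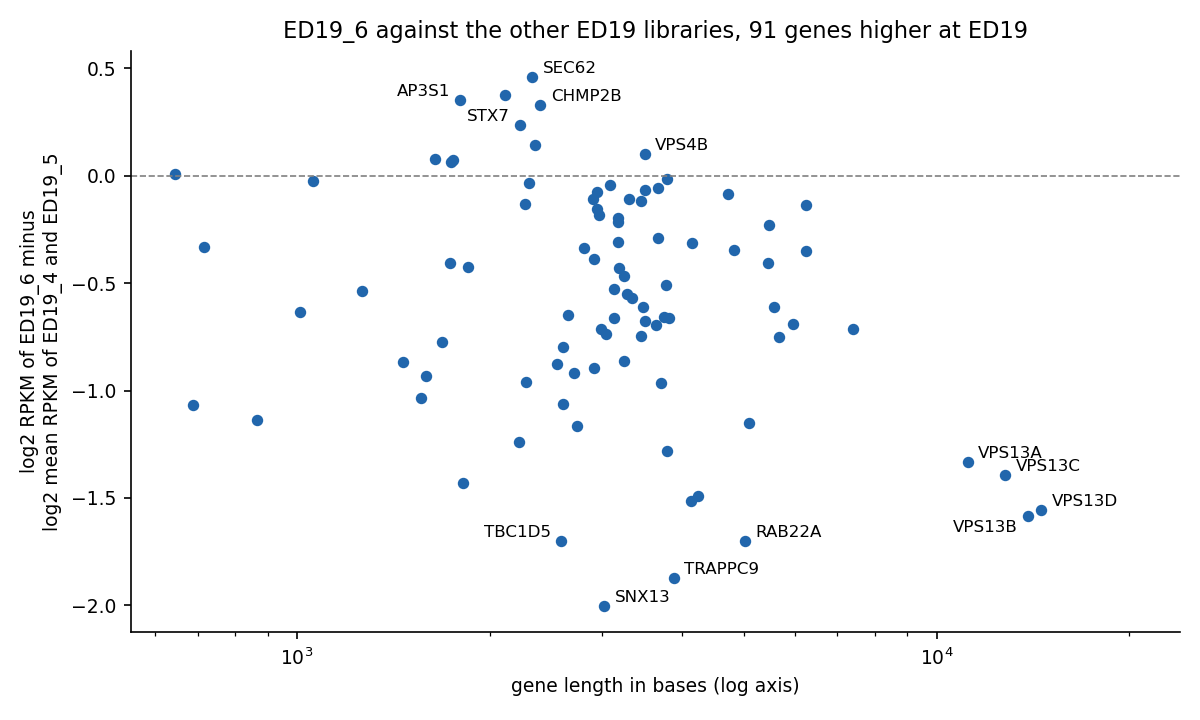
Log2 RPKM of ED19_6 minus log2 mean RPKM of ED19_4 and ED19_5 (y axis) against gene length in bases (log axis) for the 91 trafficking genes higher at ED19, 1 point a gene. Of the 91 points 80 lie below 0, the lowest is SNX13 at −2.0 and the highest SEC62 at 0.46.

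Within ED16 the libraries differed as well. ED16_1 had the highest RPKM of the 3 ED16 libraries for 26 of the 40 genes higher at ED16 and for 4 of the 91 genes higher at ED19. It did so for 4476 of 13919 tested genes of either direction. The share among all tested genes higher at ED16 was not computed, so nothing particular to the trafficking genes is read from these counts. The excess of ED16_1 over the mean of the other ED16 libraries, on the log2 scale, was 1.64 for RAB7B, 1.08 for VPS37D, 0.95 for EXOC3L4, 0.90 for RAB42, 0.80 for RAB11FIP3, 0.68 for SNX22 and 0.64 for RAB25. The epithelial markers (11 of 13 with an identifier, all 11 higher at ED16 and none at 0 in every ED19 library) summed to 267, 176 and 121 RPKM in ED16_1, ED16_2 and ED16_3, and the kidney markers (10 of 13, all 10 higher at ED16) to 253, 114 and 91.6. Erythroid markers (5897, 5355 and 4011), neuronal and endocrine markers (99.2, 69.3 and 53.9) and fibroblast markers (21.6, 19.4 and 18.5) fell in the same order. T cell, granulocyte and macrophage, and endothelial markers had their highest ED16 sum in ED16_2, and B-cell markers in ED16_3. The part of these cell types in the values of the trafficking genes was not tested.

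Vesicle transport has many genes that the symbol pattern did not catch. A list of 227 further symbols was used, some of them alternative names of the same gene. It also held genes of protein entry into the endoplasmic reticulum. Of these symbols, 106 had an identifier in the authors' table, which lists 44.1% of all counted genes, and 105 were tested. edgeR called 72 of these higher at ED19 and 33 higher at ED16, where 30.8% and 35.6% of all tested genes were called, and their median log2 fold change was −1.05, or −0.77 after the length correction. These genes too could be found only where the authors had called them, so the number called follows from the choice. With a mean RPKM of at least 5, the 3 lowest log2 fold changes were those of GCC2 (−2.99) and GOLGA1 (−2.57), both golgins that tether vesicles at the Golgi, and ARFGEF2 (−2.47), which activates ARF GTPases. The 3 highest were those of TMED3 (3.25), a cargo receptor between the endoplasmic reticulum and the Golgi, PREB (1.90), which activates the GTPase of the COPII coat, and RABIF (1.70), which binds Rab GTPases. After the length correction GCC2, GOLGA1 and ARFGEF2 were at −2.51, −2.35 and −1.95, and TMED3, PREB and RABIF at 2.92, 1.46 and 0.97. ARFGEF2 had RPKM values of 1.67, 2.37 and 2.02 at ED16 and 15.3, 17.1 and 3.42 at ED19, with ED19_6 near the ED16 range.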

How the data were processed

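Poly-A RNA was sequenced from 6 bursal cell pools, 3 a stage. The authors deposited raw counts per gene, and the submitters' processing notes name CASAVA 1.8, TopHat2 2.0.12, HTSeq 0.601 and galGal4. The RPKM values the authors deposited follow from these counts, a gene length and the library total. Gene lengths taken from these values lay within 0.01 of a whole number for all 17458 genes with counts. The authors' table of called genes gives symbols and domains, which were used. Its signal per stage, which the authors computed, and their log2 fold changes and p-values were not used.

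Counts were fitted with edgeR 4.0.16 in R 4.3.3 over all genes kept by filterByExpr, with TMM normalization, the quasi-likelihood F test and Benjamini-Hochberg adjustment (threshold 0.05). The SE is the size of the log2 fold change divided by the square root of F. Library totals of 27087661 to 34614652 place the floor of 3 counts at 8.67e-06% to 1.11e-05% of a library. Means and summaries used Python 3.11.15, pandas 2.3.3, numpy 2.4.6 and scipy 1.17.1, and plots matplotlib 3.10.9. The fits were run on simulated data with far fewer changed genes than here and no trend with gene length. That run checks the code only, since its setting differs from these data.

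The genes were placed in 10 roles by symbol. In each role, library values are given for the largest change in each direction among genes with a mean RPKM of at least 5 and no overlap, and for the highest mean RPKM. The 3 smallest changes and members of known complexes are named too. Library values of further genes were chosen after the values were seen. The genes, lists, roles and rules were all chosen with earlier results of these data known. Alternatives were upper-quartile and RLE normalization, all genes with a count, a minimum of 10 counts in each library, the length correction (loess, span 0.5), DESeq2 1.42.0, limma 3.58.1 on log2(RPKM + 1) and log2(RPKM + 0.1), an adjusted p below 0.01, a minimum fold change of 2, and leaving out libraries. A GC correction and the uncalled genes of the same families were not analysed here, since no gene sequence and no symbols for uncalled genes were used. No sequences are shown for the same reason.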

Additional observations from a re-analysis of the deposited data

How the results depend on the processing

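The sign of the log2 fold change was kept by every fitted trafficking gene under every alternative except the length correction. It placed TRAPPC5 (−0.19 ± 0.19), VAMP3 (−0.035 ± 0.16) and CHMP2A (−0.12 ± 0.17) below 0, at values no larger than about their SE. Since the genes were chosen as called, the kept signs are no sign of stability. Upper-quartile scaling moved the median of the trafficking genes from −0.92 to −0.71. A minimum fold change of 2 lowered the count of trafficking genes called from 129 to 88. Over all 13923 tested genes, 3959 instead of 4953 were then called higher at ED16, and 2502 instead of 4287 higher at ED19. The length correction left 114 trafficking genes called, and 4591 and 4392 of all tested genes called higher at ED16 and at ED19. With at least 10 counts in every library 122 trafficking genes remained, 31 of them higher at ED16. By its rule this filter removes only genes with a low count in some library. The fitted genes lost were VPS37D, RAB25, RAB7B, SNAP25, STX3, AP1M2, AP3B2 and EXOC3L4, all higher at ED16. With each library omitted in turn there were 119 to 129 trafficking genes called, 39 to 40 higher at ED16 and a median of −0.99 to −0.88. Over the 14111 to 14424 genes tested in these fits, 4365 to 5793 were called higher at ED16 and 3486 to 5156 higher at ED19. Leaving out 1 library moved 4 trafficking genes by over 1.5 times, namely RAB7B (3.22 without ED16_1), SNAP25 (8.59 without ED19_4), STX3 (3.32 without ED19_4) and EXOC3L4 (4.55 without ED19_5). No paired analysis was possible because the stages share no replicate numbers (1 to 3 and 4 to 6).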
